A study of Mus musculus with 12 samples.

Results

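The 10 genes described here encode heat shock proteins of the cytosol and of the mitochondrion, with the co-chaperones that work beside them: Hspa1a, Hspa1b, Hspa8, Hsph1, Hsp90aa1, Dnajb1, Hspb1, Bag3, Hspd1 and Hspe1. They were chosen by symbol, as the rows of the count table that carry these names, and all 10 were found among the 48795 genes of the table. All 10 also passed the filter on low counts, which kept 13812 genes for testing. Of the 10, 8 encode proteins of the cytosol and nucleus, and Hspd1 and Hspe1 encode the chaperonin of the mitochondrial matrix.

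Total RNA of the liver was sequenced in 12 female mice, 3 in each of 4 groups. The mice were littermates aged 4 months on normal chow, of the genotype labelled NTS WT (a working neurotensin gene) or NTS KO (neurotensin absent from the whole body, bred from heterozygous parents), and each was either fed ad libitum or fasted for 22 h. Neurotensin is a gut peptide released after fat is eaten, and the study asked how its loss alters the fed and fasted liver. Each sample carries its own mouse number, so the replicates were separate animals, and all 12 carry the same batch label.

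Total expected counts, the estimated reads per gene summed over a library, ranged from 21999656 to 45273081 per mouse. Nts, the targeted gene, had 0 counts in all 6 libraries labelled NTS WT, where a floor of 3 counts per library allows up to 0.136 CPM (counts scaled to the library total, the usual unit of RNA-seq). In the libraries labelled NTS KO it had 46, 40 and 15 counts in the fed mice and 12, 4 and 18 in the fasted mice. Nts therefore went against the genotype labels, and every genotype direction below follows the labels as deposited. Hepatocyte markers summed to between 118434 and 150787 CPM over the 12 mice, with 7 of the 8 markers on that list in the table.

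Heat shock proteins are molecular chaperones: they hold unfolded proteins, help them fold and hand over those that cannot be saved for degradation. When unfolded proteins build up, the transcription factor HSF1 is released, forms trimers and binds heat shock elements, which are inverted repeats of the short unit GAA, in the promoters of these genes. In the cytosol HSP70 proteins work with J-domain proteins, which load their clients, with nucleotide exchange factors, which release them, and with HSP90, while in the mitochondrion HSP60 and HSP10 form a folding chamber for imported proteins.

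RefSeq promoters of assembly GRCm38.p6 were at hand for 8 of the 10 members, and the 250 bases before each start were searched on both strands. A heat shock element of 2 facing units, GAANNTTC or TTCNNGAA, stood in 5 of these 8 (Hspa1a, Hspa1b, Hsph1, Hspb1 and Hspe1), and in 12.8% of all 32851 mouse promoters of that length. Elements of 3 units in step, which overlap the 2-unit matches, stood in the Hspe1 window and in that of a further Hspd1 start given below, and in 0.466% of all promoters. The count over members takes 1 start per gene, whereas the shares are over all promoters, several of which can belong to 1 gene. Hspa8 and Hsp90aa1 had no entry. The stretches around the elements are printed 5′ to 3′ on the gene's own strand with the elements in capitals, to show how the spacing and number of elements differ between members.
Hspa1a, chr17:34972242-34972271, minus strand: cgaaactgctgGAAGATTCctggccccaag
Hspa1b, chr17:34959324-34959353, minus strand: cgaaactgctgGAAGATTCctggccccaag
Hsph1, chr5:149636351-149636380, minus strand: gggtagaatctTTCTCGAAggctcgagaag
Hspb1, chr5:135887801-135887830, plus strand: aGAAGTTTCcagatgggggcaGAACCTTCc
Hspe1, chr1:55088053-55088082, plus strand: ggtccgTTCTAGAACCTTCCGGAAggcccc

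The Hspa1a and Hspa1b stretches were the same letter for letter, and 247 of the 250 bases before their starts (98.8%) matched. Both genes lie on chromosome 17, at 34969190 to 34972156 and 34956436 to 34959238. The Hsph1 stretch overlaps the outer end of that gene's span in the count table (149636376). Hspb1 held 2 separate elements, and Hspe1 held 3 that run into each other. The Hspe1 stretch lies within the annotated span of its neighbour Hspd1 (chromosome 1, 55077835 to 55088243, read the other way), and Hspe1 itself spans 55088132 to 55091307. A further RefSeq start of Hspd1, at position 55087932, has the same 3 matches in its own upstream window, whereas the outermost start, at 55088243, has 0. Dnajb1 and Bag3 held 0 matches of these letters in this window. A match is a description of sequence and not a measured binding site.

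**Figure D1:**
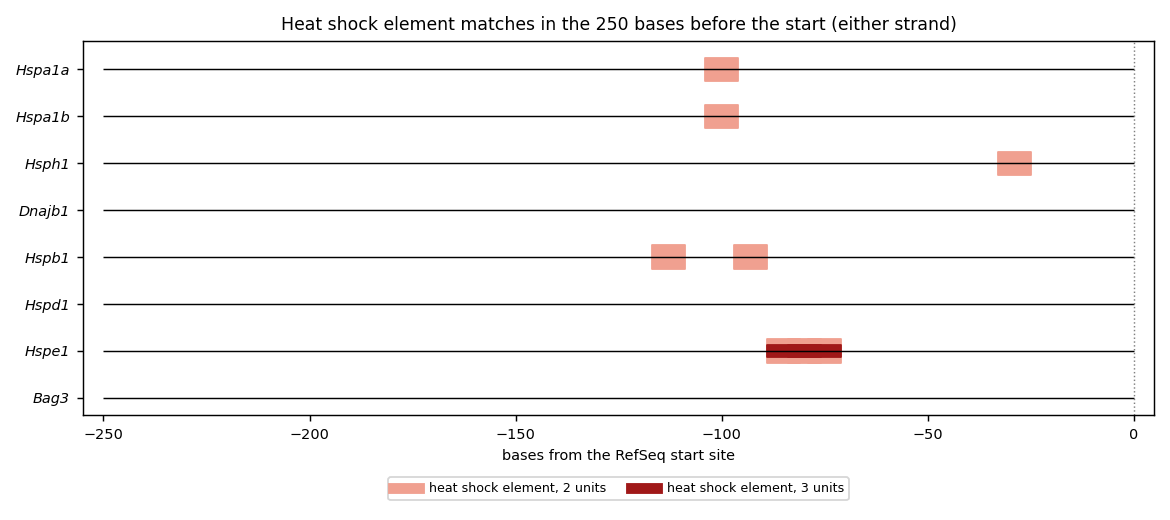
Positions of heat shock element matches on either strand, in bases from the RefSeq start (x axis, 250 bases before the start), for the 8 heat shock protein genes with a promoter entry (y axis). Pale bars are elements of 2 units and dark bars elements of 3 units; 5 of the 8 genes hold at least 1, and Hspe1 holds 3 that overlap.

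Levels spanned a wide range when set per kilobase of the longest transcript, the scale on which genes can be compared. Hspa8, the constitutive HSP70 of the cytosol, led with 378 ± 94.1 TMM-normalized CPM per kilobase (SD, n = 12). The mitochondrial partners followed, with 155 ± 27.2 for Hspd1 (HSP60) and 134 ± 16.1 for Hspe1 (HSP10) on the same scale. These neighbours overlapped across mice, whereas the lowest Hspa8 value (213) lay above the highest Hspd1 value (192).

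Hsp90aa1, the stress-responsive HSP90 of the cytosol, averaged 60.7 ± 12.9 CPM per kilobase, and Hspb1, the small heat shock protein HSP25, averaged 29.1 ± 11.1, with ranges that met between 45.2 and 49.3. Bag3, which couples HSP70 to selective autophagy, averaged 13.03 ± 4.01 on that scale. The levels of Hsph1 (the exchange factor HSP105, 9.34 ± 3.46), Hspa1b (stress-inducible HSP70, 9.10 ± 6.51) and Dnajb1 (the J-domain protein HSP40, 7.16 ± 1.77) overlapped with one another and with Bag3. Hspa1a, the near-identical twin of Hspa1b, was the lowest at 0.233 ± 0.134 CPM per kilobase and overlapped with no other member. On this scale the stress-inducible HSP70 genes stood far below the constitutive Hspa8 in every mouse.

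Several members share sequence with other genes, and expected counts divide such reads by estimate. Words of 75 bases that recur in another annotated gene made up 54.2% of the longest Hspa1a transcript and 55.8% of that of Hspa1b, mostly in each other. Between 1.18% and 8.93% of the expected counts of these twins went to Hspa1a, which had from 3.27 to 38.2 expected counts per mouse, so the lowest was close to the floor of 3. For Hsp90aa1 the share of such words was 43%, for Hspb1 41.8%, for Hspa8 31.6% and for Hspd1 24.4%, each mainly with a pseudogene or predicted gene, and it was 0 for Hsph1, Dnajb1 and Bag3. These relatives were counted too: between 140.98 and 610.82 expected counts went to Gm15459, the closest relative of Hspa8, and between 32.28 and 88.11 to Hspd1-ps3.

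The chaperonin Hspd1 was the member that changed with fasting. In fed mice labelled NTS WT, Hspd1 stood at 476, 360.0 and 508 TMM-normalized CPM, and in their fasted counterparts at 639, 578 and 468. In fed mice labelled NTS KO it stood at 399, 506 and 442 CPM, and after fasting at 605, 596 and 610.4. All 3 fasted NTS KO mice lay above all 3 fed ones, while in NTS WT a single fasted mouse fell among the fed values. The share of all tested genes whose fed and fasted ranges parted was not counted, here or for the genes below.

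Averaged over both genotypes, Hspd1 was 1.30-fold higher in fasted than in fed livers (log2 fold change 0.38, SE 0.11, 95% interval 0.13 to 0.62, edgeR quasi-likelihood adjusted p = 0.0207). It was the single member of 10 past the threshold in that comparison, in which 32.8% of all tested genes passed, 16% higher and 16.8% lower. The Hspd1 call did not hold when mouse 257 (adjusted p = 0.0507) or mouse 277 (adjusted p = 0.0558), both fed, was left out. Within each genotype the difference in Hspd1 was 0.33 in NTS WT (SE 0.16, edgeR adjusted p = 0.178) and 0.43 in NTS KO (SE 0.16, edgeR adjusted p = 0.0839) on the log2 scale, neither past the threshold.

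Hspe1, the co-chaperonin that caps the HSP60 chamber, stood at 129, 113 and 141 CPM in fed and 118, 134 and 117 CPM in fasted NTS WT mice. In NTS KO mice it stood at 102, 119 and 136 CPM fed and 156, 139.9 and 145 CPM fasted. The fasted NTS KO mice lay above every fed NTS KO mouse and every fasted NTS WT mouse, and the NTS WT groups overlapped.

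The Hspe1 difference with fasting was 0.30 (log2, SE 0.13, 95% interval 0.02 to 0.59, edgeR adjusted p = 0.134) in NTS KO and -0.05 (SE 0.13, edgeR adjusted p = 0.822) in NTS WT. Neither passed, and the difference between these responses was 0.36 (SE 0.19, 95% interval -0.05 to 0.76, edgeR adjusted p = 0.897). Hspd1 and Hspe1 are annotated head to head with overlapping ends, and whether reads were assigned by strand is not given in the sources used here.

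Among the cytosolic members the stress-inducible Hspa1b had the largest estimate and the widest error. It stood at 10.8, 28.8 and 11.1 CPM in fed and 8.92, 44.9 and 50.4 CPM in fasted NTS WT mice. In NTS KO mice it stood at 7.17, 9.81 and 27.03 CPM fed and 57.5, 11.8 and 37.9 CPM fasted. In each genotype 2 of 3 fasted mice lay above all fed mice. The remaining fasted mouse lay below the fed mice in NTS WT and among them in NTS KO, so the groups overlapped.

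Hspa1b was 2.25-fold higher with fasting averaged over genotypes, but the interval ran from -0.19 to 2.52 on the log2 scale (log2 fold change 1.17, SE 0.59, edgeR adjusted p = 0.17). Summing the expected counts of both twins, which removes the division of shared reads between them, gave a log2 difference of 1.13 (SE 0.59, edgeR adjusted p = 0.18). Hspa1a alone gave -0.14 (SE 0.49, edgeR adjusted p = 0.855) and ranged from 0.142 to 1.40 CPM over the 12 mice.

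Hspa8 stood at 1412, 1962 and 1488 CPM in fed and 1458, 1947 and 2112 CPM in fasted NTS WT mice. In NTS KO mice it stood at 965, 1282 and 1962 CPM fed and 1975, 1484 and 2480.3 CPM fasted. The groups overlapped in both genotypes, and the fed NTS KO mouse 319 lay at the level of the highest fed NTS WT mouse. The log2 difference was 0.34 averaged over genotypes (SE 0.18, 95% interval -0.06 to 0.74, edgeR adjusted p = 0.176). Without mouse 319 the Hspa8 difference was 0.50 (edgeR adjusted p = 0.0322) averaged and 0.82 (edgeR adjusted p = 0.0373) within NTS KO. Without mouse 277, also fed NTS KO, it was lower, at 0.24 averaged and 0.29 within NTS KO.

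Bag3 ranged from 22.0 to 52.8 CPM, with an averaged log2 difference of 0.30 (SE 0.24, edgeR adjusted p = 0.381). Without the fed NTS WT mouse 257, which had 50.6 CPM against 23.9 and 22.0 in its group, it was 0.54 (edgeR adjusted p = 0.0429). Without the fasted NTS WT mouse 322 the Bag3 difference was 0.17. The other members gave averaged log2 differences near 0: -0.06 for Hsph1 (SE 0.33), -0.01 for Hsp90aa1 (SE 0.17), 0.06 for Dnajb1 (SE 0.21) and -0.15 for Hspb1 (SE 0.33). Their 95% intervals on the log2 scale were -0.79 to 0.68 for Hsph1 and -0.38 to 0.36 for Hsp90aa1. For Dnajb1 the interval was -0.40 to 0.52 and for Hspb1 -0.89 to 0.60, so changes of such sizes in either direction remain possible.

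By genotype, 0 of the 10 members passed with fasting in NTS WT, where 18.1% of all tested genes did, and 0 of 10 passed in NTS KO, where 16.8% did (edgeR). At an unadjusted p under 0.05 the counts were 0 members in NTS WT and 2 in NTS KO (Hspd1 and Hspe1), beside 32.5% and 31.7% of all tested genes. DESeq2 called 0 and 1 (Hspd1) of the members, beside 2881 and 2788 genes in all, and limma voom called 0 and 0 members. The median log2 difference of the 10 members averaged over genotypes was 0.09, beside -0.01 for all tested genes.

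**Figure D2:**
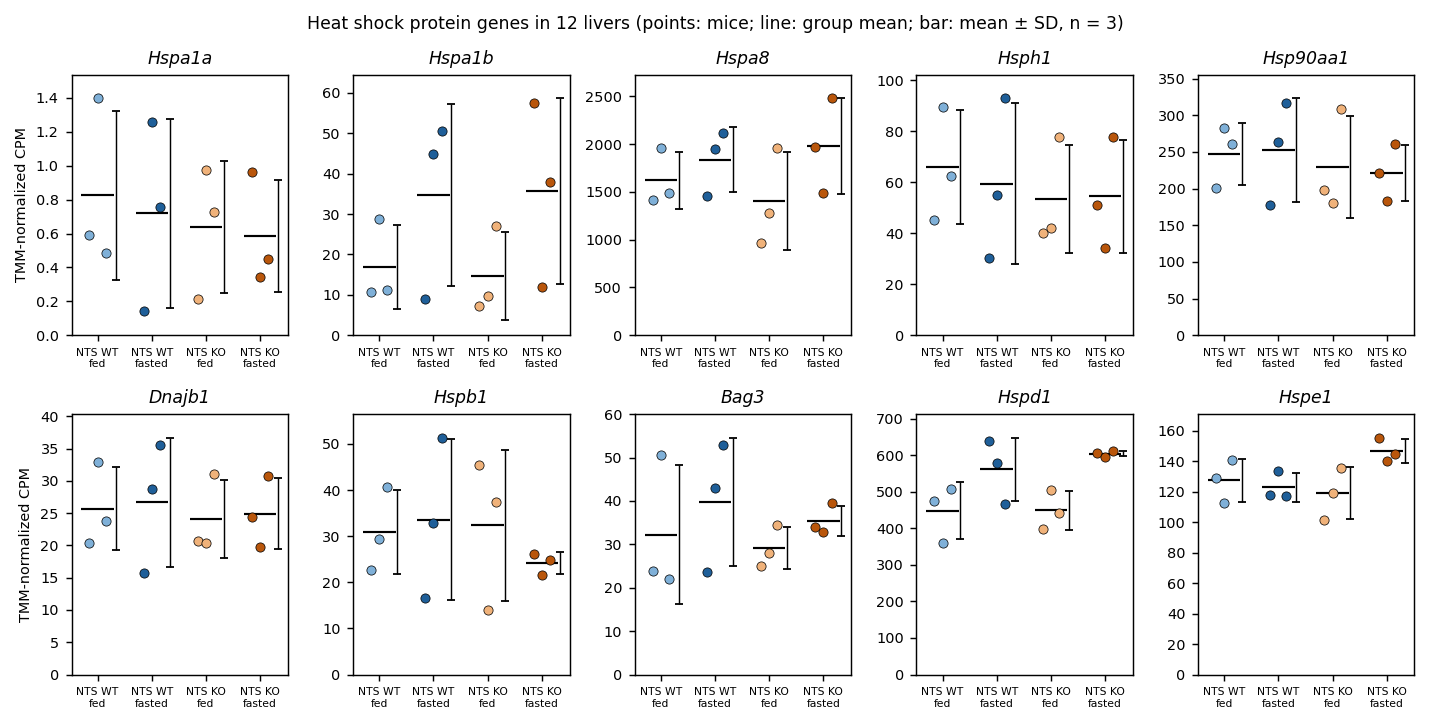
TMM-normalized CPM (y axis, linear from 0) of the 10 heat shock protein genes in each of 12 livers, by genotype label and feeding state (x axis). Points are mice, lines are group means and bars mean ± SD (n = 3). For Hspd1 and Hspe1 the 3 fasted NTS KO mice lie above the 3 fed ones, and the share of all genes with such ranges was not counted. For the cytosolic genes the fed and fasted groups of each genotype overlap.

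**Figure D3:**
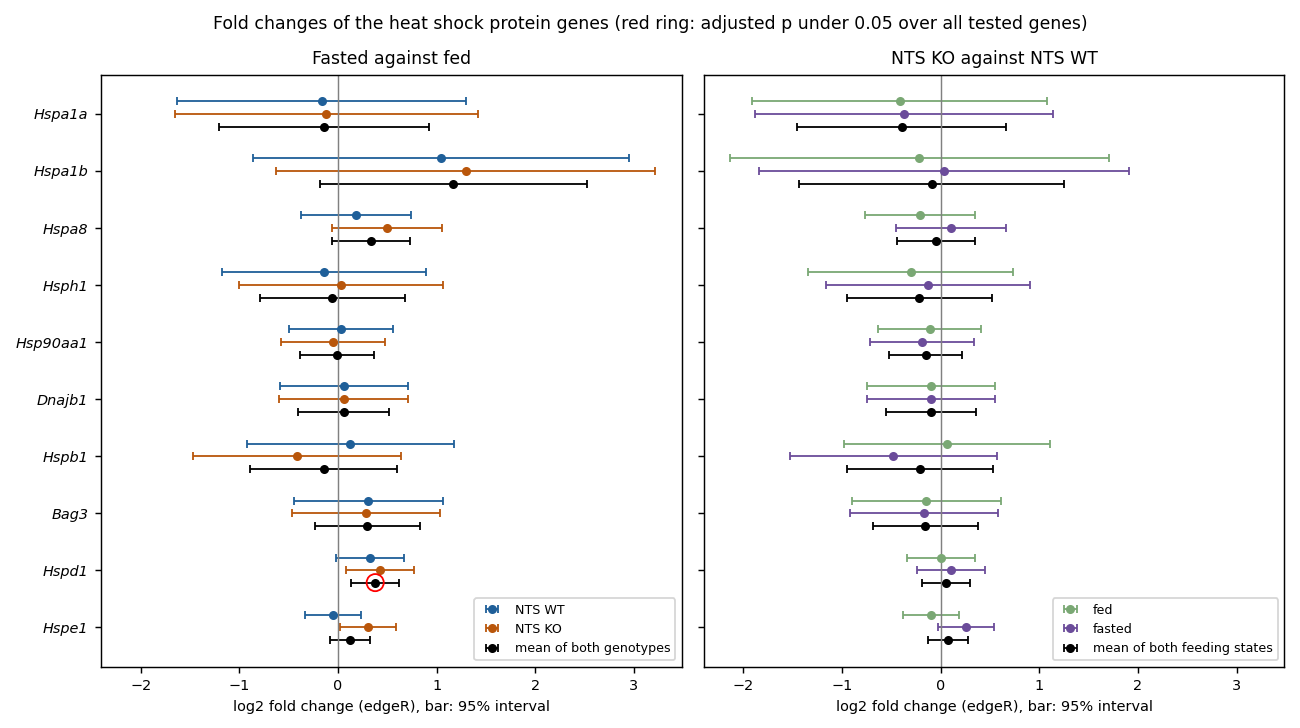
Log2 fold changes (x axis) of the 10 heat shock protein genes (y axis) with 95% intervals, fasted against fed (left) and NTS KO against NTS WT (right), n = 3 mice a group. The red ring marks the 1 call, Hspd1 averaged over both genotypes at 0.38, and every genotype interval spans 0.

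No member passed between the genotype labels. For Hspe1 in fasted livers, where the ranges parted, the log2 difference was 0.26 (edgeR adjusted p = 0.917). With 3 mice a group ranges can part without a call, and the share of all tested genes whose ranges parted was not counted. NTS KO against NTS WT, the members' log2 differences ran from -0.42 to 0.06 in fed livers and from -0.48 to 0.26 in fasted livers. Averaged over feeding states they ran from -0.39 to 0.08, and the difference between the genotype differences (fasted minus fed) ran from -0.54 to 0.36. In all 4 comparisons 0 of 10 members passed, and 0% of all tested genes did (edgeR). The lowest adjusted p of a member was 0.893 in fed livers, 0.917 in fasted livers, 0.898 averaged and 0.897 for the difference of differences. At an unadjusted p under 0.05, 0 members were counted in each of the 4, by edgeR, DESeq2 and limma voom alike. Over all genes DESeq2 called 8, 4, 16 and 3 in these comparisons, and edgeR counted 876, 685, 859 and 663 at an unadjusted p under 0.05.

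The error of these genotype estimates differed by member. For Hspd1 the 95% interval averaged over feeding states was -0.19 to 0.30 on the log2 scale, and for Hspe1 it was -0.12 to 0.28. For Hspa8 it was -0.45 to 0.34, and for Hspa1b it was -1.43 to 1.25. A 2-fold genotype difference averaged over feeding states was thus outside the interval for the mitochondrial pair, while for Hspa1b it was within it either way. For Hspe1 the average joins estimates of opposite sign, -0.10 in fed and 0.26 in fasted livers. Its interval in fasted livers ran from -0.03 to 0.54, so smaller differences within 1 feeding state remain possible.

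Variation among mice of the same group was larger for the cytosolic members than for most genes. The within-group SD of log2 CPM was 1.11 for Hspa1b, higher than in 98.3% of tested genes, 0.99 for Hspa1a (97.7%), 0.65 for Hspb1 (92.9%) and 0.62 for Hsph1 (91.7%). It was 0.47 for Bag3, 0.42 for Dnajb1, 0.37 for Hspa8 and 0.35 for Hsp90aa1, beside a median of 0.24 over all tested genes. The mitochondrial members were steadier, at 0.19 for Hspd1, higher than in 35.9% of genes, and 0.15 for Hspe1 (17.5%).

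The same mice were high or low across the cytosolic genes. Mouse 257 (fed NTS WT), mice 282 and 322 (fasted NTS WT) and mouse 319 (fed NTS KO) were above the median of the 12 mice in 8 of 8 cytosolic members. Mice 254 (fed NTS WT), 265 (fasted NTS WT) and 290 (fasted NTS KO) were above it in 0 of 8. Mice of both kinds stood in the same group, since each of the 4 groups held at least 1 mouse above the median in 6 or more members and at least 1 above it in no more than 1.

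For Hsph1, mouse 265 had 30.4 CPM, mouse 282 had 55.0 and mouse 322 had 92.9, all fasted NTS WT. For Dnajb1 the same mice had 15.8, 28.7 and 35.5 CPM, and for Hspb1 16.6, 32.9 and 51.4 CPM. The order of these 3 mice was the same in each of these genes, and Hsp90aa1 and Bag3 followed it as well (177, 264 and 317 CPM, and 23.6, 42.9 and 52.8 CPM). Hspa1b and Hspa8 had it too, whereas in Hspa1a mouse 282 (1.26 CPM) lay above mouse 322 (0.759 CPM). The library totals of these mice had the same order (23040688, 31137941 and 36018411). Other groups did not keep 1 order, since in fed NTS KO mice 277 was highest for Hspb1 (45.5 CPM) and lowest for Hsph1 (40.1 CPM).

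**Figure D4:**
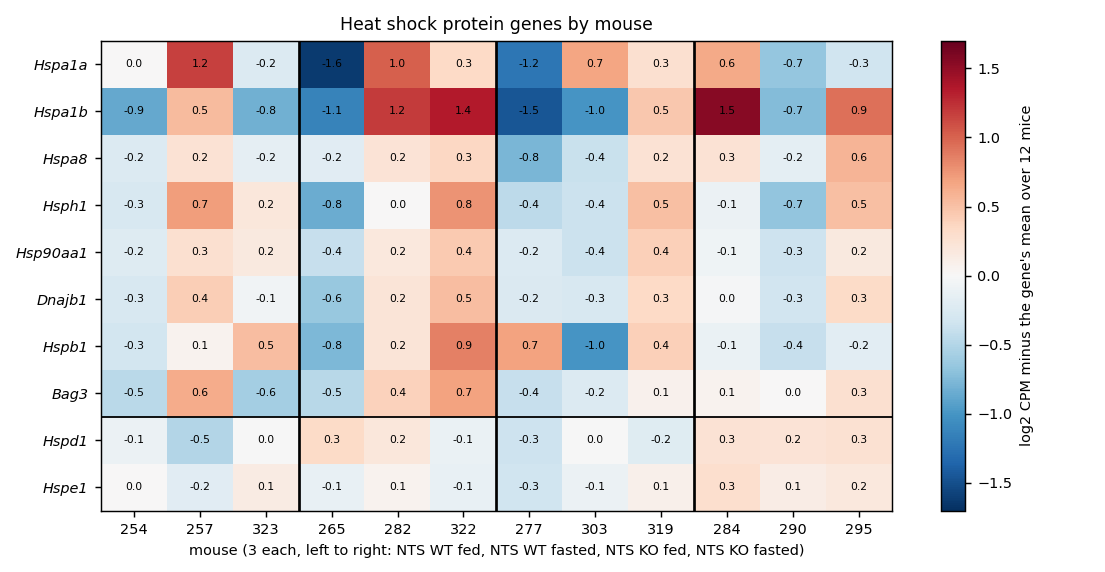
Log2 CPM minus each gene's mean over 12 mice (colour and printed value) for 8 cytosolic genes above the black line and Hspd1 and Hspe1 beneath it, with mice in columns by group. Mice 257, 282, 322 and 319 are above the median in 8 of 8 cytosolic genes and mice 254, 265 and 290 in 0 of 8.

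Over the 12 mice, which share chow, sex, batch label and normalization, Pearson correlations of log2 CPM between pairs of cytosolic members ranged from 0.101 to 0.958 with a median of 0.697 (28 pairs). Computed on deviations from the group means, the median was 0.767. The tightest were Hsph1 with Dnajb1 (0.958), Hsph1 with Hsp90aa1 (0.945) and Hsp90aa1 with Dnajb1 (0.940), which are an exchange factor, a J-domain protein and HSP90 of the same folding cycle. Hspa1b ran with Hspa8 (0.889). Without Hspa1a and Hspb1, the remaining 15 pairs ranged from 0.674 to 0.958.

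Hspd1 and Hspe1 correlated at 0.635, and the 16 pairs of a cytosolic with a mitochondrial member had a median of 0.058 and a range of -0.48 to 0.535. On deviations from the group means the chaperonin pair stood at 0.567, and the mixed pairs had a median of -0.207 and a range of -0.776 to 0.409. Mice high in the cytosolic genes could be low in the chaperonin. Mouse 257, above the median in 8 of 8 cytosolic members, was lowest of all for Hspd1 at 360.0 CPM, and mouse 265, above it in 0 of 8, was highest at 639. Total counts of the libraries and the mean cytosolic profile correlated at 0.367 (Spearman 0.448, n = 12), and the part of depth in the profile was not tested.

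The genes most like the mean cytosolic profile over the 12 mice were Mfsd5 (Pearson 0.901, Spearman 0.825), Manf (0.888 and 0.846), Saysd1 (0.880 and 0.860), Wasf1 (0.873 and 0.860) and P4ha1 (0.864 and 0.895). Without mice 265 and 277, which lay farthest from the median profile, the Pearson values were 0.910, 0.839, 0.863, 0.883 and 0.813. Manf encodes a secreted protein of the endoplasmic reticulum stress response and ranged from 44.4 to 176 CPM. Chaperones of the endoplasmic reticulum had a median correlation of 0.537 with the cytosolic profile (14 genes), led by Hyou1 at 0.774, beside -0.0176 for all tested genes. HSP70 and HSP90 co-chaperones had a median of 0.385 (20 genes), with Chordc1 highest at 0.795. Hsf1 stood at 0.703, over a narrow range of 8.07 to 10.4 CPM. Immediate early genes, which respond within minutes to many stimuli, had a median of -0.166 (9 genes).

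For the mean of Hspd1 and Hspe1 the most alike were Atp5f1 (Pearson 0.973, Spearman 0.923), Mrps33 (0.956 and 0.916), Minos1 (0.939 and 0.867), Tomm5 (0.939 and 0.930) and Sucla2 (0.937 and 0.902), which encode proteins of the mitochondrion. Without mice 257 and 277 the Pearson values were 0.953, 0.886, 0.842, 0.890 and 0.904. The subunits of TRiC, the cytosolic relative of HSP60, had a median correlation of 0.638 with this profile (8 genes), and the mitochondrial chaperones and proteases one of 0.557 (15 genes). Over all tested genes the median was -0.0135. Like those with the cytosolic profile, these correlations include any difference between fed and fasted mice. Values on deviations from the group means were not computed for either profile.

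The wider chaperone network changed with fasting in parts, averaged over genotypes and read against the 16% of tested genes that rose and the 16.8% that fell. Of 15 genes on the list of mitochondrial chaperones and proteases, 7 rose and 0 fell (median log2 difference 0.28). On that list 2 fell with upper-quartile normalization or without mouse 295, and 1 with DESeq2. Hspa9, the mitochondrial HSP70 that pulls in imported proteins, stood at 562, 563 and 500.1 CPM fed and 841, 683 and 583 CPM fasted in NTS WT, and at 465, 553 and 565 CPM fed and 703, 712 and 714 CPM fasted in NTS KO. Every fasted mouse lay above every fed mouse (log2 difference 0.40, edgeR adjusted p = 0.00941).

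Its J-domain partner Dnaja3 rose by 0.75 on the log2 scale (edgeR adjusted p = 1.57e-05), from 77.5 to 90.4 CPM over the fed mice to 122 to 158 CPM over the fasted mice. Its exchange factor Grpel1 rose by 0.64 (edgeR adjusted p = 0.000177), and Afg3l2, a protease of the inner membrane, by 0.54 (edgeR adjusted p = 0.000121). Trap1, the mitochondrial HSP90, did not pass, at -0.08 (edgeR adjusted p = 0.5).

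Of 8 TRiC subunits, 4 rose and 0 fell (median 0.28), among them Cct2 (0.49, edgeR adjusted p = 0.000467), Tcp1 (0.48, edgeR adjusted p = 0.00079) and Cct6a (0.44, edgeR adjusted p = 0.00239). Of 13 J-domain proteins, 7 rose and 2 fell (median 0.27), with Dnajb4 at 0.51 and Dnajb2 at -0.46 besides Dnaja3. Of 10 tested rows of other HSP70 and HSP110 genes, Hspa14 having 2 rows, 1 rose (Hspa9) and 1 fell, Hspa4l at -0.52 (edgeR adjusted p = 0.00319). Neither of the 2 other HSP90 genes passed, Hsp90ab1 standing at -0.01.

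Of 20 HSP70 and HSP90 co-chaperones 4 rose and 4 fell (2 and 5 with upper-quartile normalization), with Bag4 at 0.52 and, among those lower, Fkbp4 at -0.80 and Ppid at -0.36, immunophilins that bind HSP90 (edgeR adjusted p = 0.000323, 0.000636 and 0.00429). Fkbp4 ranged from 182 to 277 CPM over fed and from 93.9 to 144 CPM over fasted mice, without overlap. Of 4 tested genes listed as small heat shock proteins, Hspb6 rose (0.47, edgeR adjusted p = 0.0463) and Hspb11 fell (-0.76, edgeR adjusted p = 0.00812). Of 6 prefoldin subunits Pfdn1 fell (-0.35, edgeR adjusted p = 0.0386). The calls of Hspb6 and Pfdn1, and that of Pdia6 below, were lost when any of several single mice was left out.

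Of 4 tested genes on the heat shock factor list, which includes Hsbp1, the gene of a binding protein, Hsf2 rose (0.46, edgeR adjusted p = 0.00641). Hsf1 gave -0.02 (edgeR adjusted p = 0.881). Of 14 chaperones of the endoplasmic reticulum 0 rose and 2 fell by edgeR, Serpinh1 (the collagen chaperone HSP47, -1.55, edgeR adjusted p = 4.44e-06) and Pdia6 (-0.84, edgeR adjusted p = 0.0418). DESeq2 called 2 of the 14 higher and 3 lower, and limma voom 1 higher and 3 lower. By edgeR, leaving out single mice gave 0 to 1 higher, and 6 fell without mouse 322 and 4 without mouse 295. Serpinh1 is made by stellate cells. With fasting 3 of 6 stellate cell markers fell, as did 3 of 6 sinusoidal endothelium markers, beside 16.8% of all tested genes. The part of these cells in the Serpinh1 difference was not tested.

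The cold-inducible RNA-binding proteins Rbm3 and Cirbp both rose. Rbm3 stood between 10.1 and 20.7 CPM over the fed mice and between 71.0 and 107 CPM over the fasted mice, without overlap (log2 difference 2.51, edgeR adjusted p = 3.89e-06). Cirbp rose by 1.19 (edgeR adjusted p = 0.0134). Over the 12 mice Rbm3 correlated at 0.741 with the mean of Hspd1 and Hspe1 and at 0.136 with the cytosolic profile. These values include the difference between fed and fasted mice, and values on deviations from the group means were not computed. Of 9 tested immediate early genes 0 passed by edgeR, and 3 had an unadjusted p under 0.05, as did 42.6% of all tested genes. No gene of any of these lists passed in a genotype comparison or in the difference of differences.

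**Figure D5:**
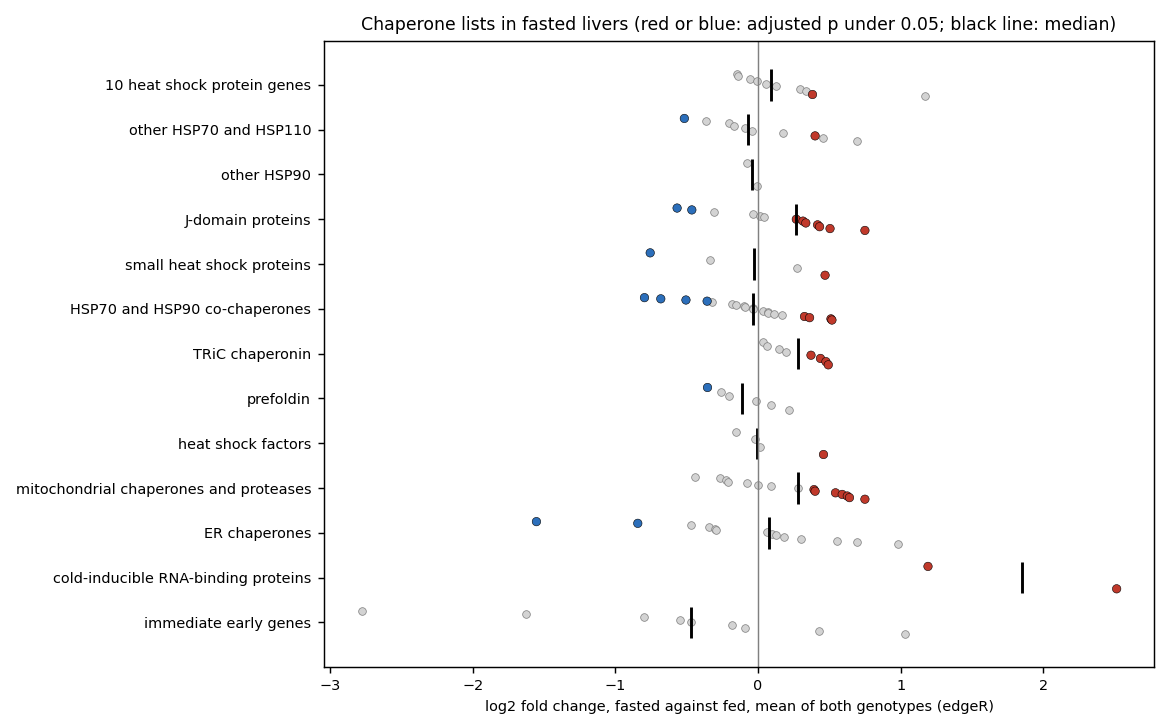
Log2 fold changes with fasting, averaged over both genotypes (x axis), of the 10 heat shock protein genes and of 12 lists of related genes (y axis). Each point is a gene, red or blue where the adjusted p is under 0.05 and grey otherwise, and black lines are medians. Of the 15 genes on the list of mitochondrial chaperones and proteases 7 rose, and of the 10 heat shock protein genes 1 rose.

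Some markers of liver cells were called with fasting, averaged over genotypes. Their counts are to be read against the 16% of tested genes that rose and the 16.8% that fell. By edgeR, 2 of 6 Kupffer cell markers, 3 of 6 stellate cell markers, 3 of 6 sinusoidal endothelium markers, 1 of 4 tested cholangiocyte markers and 1 of 5 erythroid markers fell. In the other direction, 1 sinusoidal endothelium marker rose, and of 6 lymphocyte markers 0 passed. Of the 7 hepatocyte markers 2 rose and 2 fell. No marker in the table was at 0 in all mice. Summed stellate cell markers ran from 220 to 286 CPM over the fed and from 205 to 236 CPM over the fasted mice, and summed endothelial markers from 142 to 207 and from 121 to 146 CPM. Their part in the fasting result for Hspd1 was not tested, and in bulk liver fewer cells of a type and less RNA per cell cannot be told apart.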

How the data were processed

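Liver RNA of 12 mice was sequenced. The authors deposited 1 table of expected counts per gene, estimated and unscaled, with GRCm38 positions. The submitters' processing notes name Trimmomatic, RSEM and GRCm38; versions, annotation release and strandedness are not given in the sources used here. Count columns of other samples numbered 0.

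Expected counts were rounded. In R 4.3.3, edgeR 4.0.16 (filterByExpr, TMM, a mean per group over 12 mice, robust glmQLFit and glmQLFTest) tested 13812 genes, with Benjamini-Hochberg adjusted p under 0.05 counted as a call. No covariate was used. DESeq2 1.42.0, limma 3.58.1 (voom on unrounded counts), other normalizations, filters and thresholds, and leaving out each mouse were alternatives. CPM were TMM-normalized except for Nts, and log2 CPM used a prior count of 2. The script was tested on simulated counts. Depth, from 21999656 to 45273081 counts, sets a floor of 3 counts, which covers counting error only.

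Transcript lengths and shared words of 75 bases came from GENCODE vM39 (no coordinates used), and promoters from RefSeq GRCm38.p6. The members and lists were chosen with earlier results of these data known. Named genes were the members, up to 3 genes per list with the smallest p among those called with fasting, and the 5 genes most correlated with each profile; others named (Hsp90ab1, Trap1, Hsf1, Hyou1, Chordc1) were chosen after their values were seen. Marker lists stood for the main cell types of the liver and for blood.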

Additional observations from a re-analysis of the deposited data

How the results depend on the processing

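No paired analysis was possible because mouse numbers are shared by no groups and the sample labels used here give no litter. Differences between litters were therefore not modelled. With fasting in NTS KO, the count of members called moved from 0 to 1 with DESeq2 (Hspd1), which called 2788 genes in all. It also moved to 1 at an adjusted p under 0.10 (Hspd1). The share of all tested genes called at that threshold, or averaged over genotypes without single mice, is not given here. Averaged over genotypes the count of members called moved from 1 to 0 when a log2 change of 1 or more in either direction was required. Leaving out each mouse in turn gave 0 to 2 members averaged over genotypes, 0 to 1 in NTS KO, and 0 to 0 in NTS WT, in the genotype comparisons and in the difference of differences. The mice that decided these counts were 277 (0 members averaged without it), 319 (2 averaged, Hspa8 and Hspd1, and 1 in NTS KO, Hspa8) and 257 (1 averaged, Bag3 in place of Hspd1). In the main setting the only member call was Hspd1 averaged over genotypes, so only that result could fall behind the threshold or be reversed. The total of alternative values, which covers all members and comparisons, therefore does not measure how stable that call was. Of 1249 values of single members under alternatives, 3 fell behind the threshold, 5 passed it and 0 reversed a called direction. The cause was not tested. Over all genes, calls with fasting in NTS WT, in NTS KO and averaged numbered 2501, 2326 and 4524, and 911, 915 and 1082 with that requirement. Leaving out 254, 257 or 282 gave 1326, 1596 or 1224 in NTS WT, and leaving out 277, 284 or 290 gave 1358, 1523 or 1365 in NTS KO. Without single mice the co-chaperones that rose numbered from 1 to 4, and the chaperones of the endoplasmic reticulum that fell from 1 to 6. Hspa1a had as few as 3.27 expected counts in a mouse, and its counts rest on the division of reads shared with Hspa1b.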
